A study of Mus musculus with 19 samples.

Results

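Transcripts of 6 tetraspanin genes, Cd81, Cd9, Cd63, Cd82, Cd151 and Tspan8, were followed across 19 single mouse embryos. They are 6 of the 53379 gene rows of the deposited table, taken by gene name, and all 6 passed the filter on low values that left 18410 genes for testing. Cd81 was selected on its level in non-KO morulae of 2 crosses, so its values there are given as a description with no test. The 5 others were added as members of the same protein family.

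Tetraspanins are small membrane proteins that cross the membrane 4 times. They hold partner proteins such as integrins, immunoglobulin-type proteins and EpCAM together in patches of the plasma membrane, and several of them ride on endosomes and exosomes. Cd9 and Cd81 are best known in reproduction from the egg surface, where Cd9 is needed for fusion with sperm. Cd63 is the classical tetraspanin of late endosomes and lysosomes, Cd151 is the close partner of laminin-binding integrins, Cd82 is known as a suppressor of metastasis, and Tspan8 is typical of epithelia and is used as a marker of the trophectoderm, the outer epithelium of the blastocyst.

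All embryos were of the strain label B6D2F1, came from in vitro fertilisation and were collected 96 hours after insemination from KSOM culture. Crosses between Alyref+/- parents gave 2 Alyref KO and 3 non-KO morulae, with 3 blastocysts that were also non-KO, where non-KO means WT or heterozygous with the 2 genotypes not separated. Crosses between Gabpb1+/- parents gave 3 morulae labelled Gabpb1 KO, 2 that were non-KO, and 3 blastocysts, non-KO too, and WT parents gave 3 blastocysts. The protein of Alyref helps mRNA out of the nucleus and that of Gabpb1 is part of GABP, a transcription factor. The submitters recognised KO embryos by missing reads over the deleted region in the same libraries. No KO blastocyst was sequenced, and no WT morula. As morulae and blastocysts were of the same age, stage and delay in development cannot be told apart in any comparison between them.

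Each library held 7.49 to 31.5 M gene counts (megacounts, median 13.6 M), with 2.51% to 5.74% of them from the mitochondrial genome and spike-in counts equal to 0.501% to 1.95%. Alyref was at 47.8 to 58.5 CPM (counts scaled to the same library total) in Alyref KO morulae against 162 to 291 CPM in non-KO morulae of its cross. Gabpb1 was at 78.3 to 259 CPM in the morulae labelled Gabpb1 KO against 83.3 to 93.8 CPM in their non-KO counterparts. Counts over a whole gene do not show a deleted exon, so these embryos are called labelled Gabpb1 KO throughout. Of 10 cumulus and granulosa cell markers, the cells that surround the egg, the summed level was 0.185 to 5.76 CPM in any embryo. Each embryo is a separate sample, but embryos of a cross may share parents, and no batch or date is given, so cross and fertilisation cannot be told apart.

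The stretch just upstream of the start of the 2 genes that varied most between embryos is shown first, as RefSeq gives it on GRCm38.p6: 250 bases before the transcription start, 5′ to 3′ on the gene's strand. Capitals mark matches to the GC box, GGGCGG, the element bound by Sp and KLF factors. The Cd81 window is chr7:143052500-143052749 and the Tspan8 window is chr10:115817034-115817283, both on the plus strand.
Cd81: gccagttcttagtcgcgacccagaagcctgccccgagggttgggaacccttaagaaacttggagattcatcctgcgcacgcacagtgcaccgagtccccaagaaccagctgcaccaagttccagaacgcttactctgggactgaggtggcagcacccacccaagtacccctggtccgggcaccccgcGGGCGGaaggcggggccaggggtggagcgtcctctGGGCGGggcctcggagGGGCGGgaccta
Tspan8: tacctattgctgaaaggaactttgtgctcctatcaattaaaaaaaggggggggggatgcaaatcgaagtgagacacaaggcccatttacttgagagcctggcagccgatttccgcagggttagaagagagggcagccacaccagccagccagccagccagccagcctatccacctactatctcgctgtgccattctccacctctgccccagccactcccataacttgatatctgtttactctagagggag
Cd81 had 3 GC boxes, the nearest starting 12 bases before the start, in a window of 65.6% G and C. Tspan8 had none, in a window of 52.4% G and C, which equals the median over all 32851 windows of this kind. At least 1 GC box on either strand was in 32.7% of those windows. The other motifs searched on both strands were CCGGAAG for GABP, in 6.91% of windows, GGAATG for TEAD factors, in 12.6%, and the AP-2 element of GCC and GGC spaced by 3 bases, in 13.7%. None of these 3 was in either window shown, and CCGGAAG was in none of the windows of the 6 genes. Among the windows not shown, GGAATG was found for Cd82 and the AP-2 element for Cd82 and Cd151. GC boxes were found there for Cd9, Cd82 and Cd151. The last 11 bases of the Cd81 window and the last 13 of the Tspan8 window are exon in GENCODE M21. There the Tspan8 gene begins at chr10:115816832, ahead of its window. That window thus lies inside the GENCODE gene and is upstream of the RefSeq start only.

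Cd9 and Cd63 were the most abundant tetraspanins in every group. On a scale per length (FPKM, computed from the counts), Cd63 ranked 75 and Cd9 ranked 87 of the 18410 genes by mean level. Together these 2 genes made up 66.6% to 93.6% (median 81.4%) of the summed FPKM of 31 tetraspanin genes in the table. Tspan8 ranked 442 and ranged from 0.178% to 27.0% of that sum, Cd151 ranked 5095, Cd81 ranked 5875 and Cd82 ranked 8852. The heat map of the family shows Cd63 and Cd9 as the 2 highest genes in each group.

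**Figure D1:**
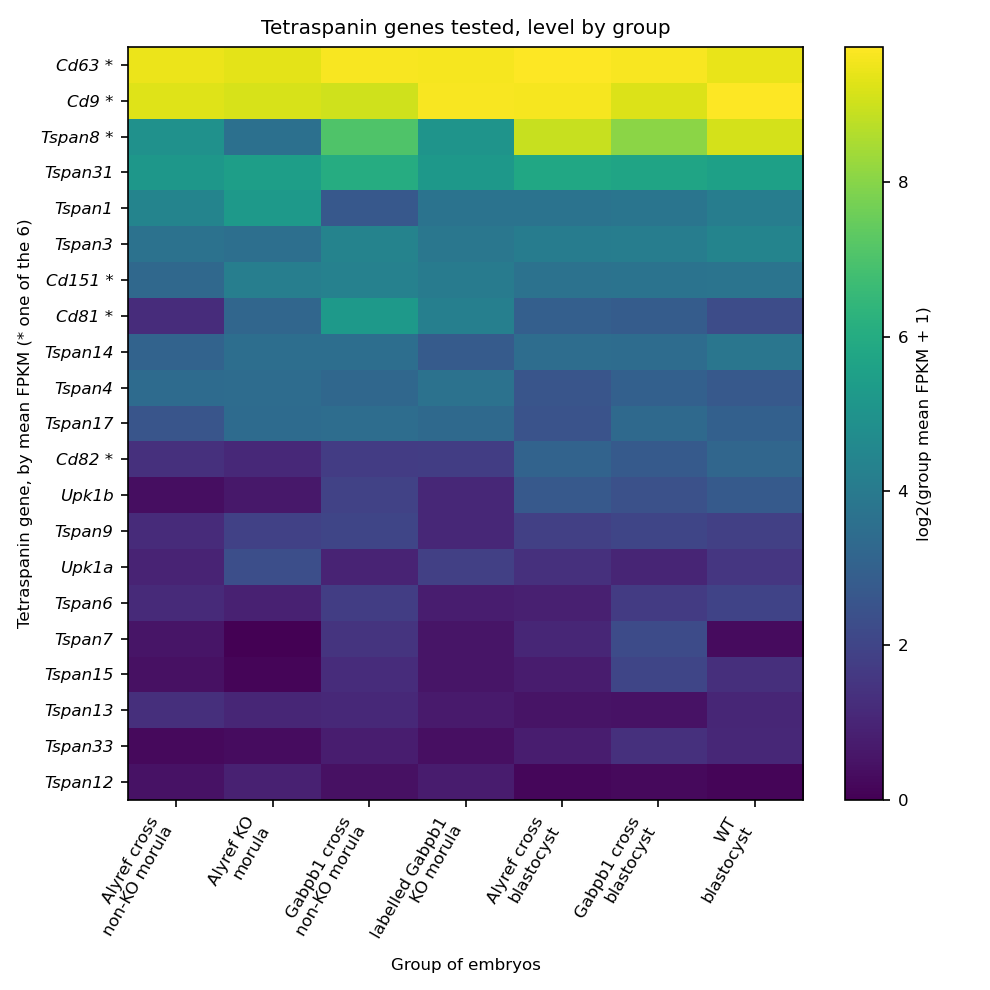
Level of the 21 tetraspanin genes that passed the filter, as log2 of the group mean FPKM plus 1 (colour), for the 7 groups (columns), with genes in order of mean FPKM and the 6 followed genes starred. Cd63 and Cd9 are the 2 brightest rows in all columns, and Tspan8 is bright in the 3 blastocyst columns.

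Cd81 lies on chromosome 7 (ENSMUSG00000037706.17, chr7:143052739-143067934, plus strand). It ranged from 2.36 to 175 CPM over the 19 embryos, a span of 74.2-fold and 28 to 2304 counts. Its lowest levels were in the Alyref cross non-KO morulae, at 3.26, 2.36 and 6.28 CPM. Its highest was in a Gabpb1 cross non-KO morula, where the 2 embryos were at 33.8 and 175 CPM. These 2 groups did not overlap, and their fitted means differed 26.2-fold. That difference chose the gene. It carries no test, and its size rested largely on the second Gabpb1 cross embryo, with a log2 ratio of the group means of 4.72 with that embryo and 3.09 without it.

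The KO morulae of the 2 crosses lay between those extremes. Alyref KO morulae were at 23.9 and 23.3 CPM, nearly equal and both above every non-KO morula of their cross, with a fitted mean 5.91-fold higher. Of all genes, 12.5% lay above in both KO embryos in this way. Morulae labelled Gabpb1 KO were at 16.7, 115 and 17.0 CPM, so that 1 of the 3 stood far above the others, and they overlapped their non-KO counterparts, with a fitted mean 2.11-fold lower. That direction rested on single embryos: the log2 ratio of the group means was -1.07, but 0.56 without the second non-KO embryo and -2.64 without the second labelled KO embryo. For Alyref, leaving out 1 embryo gave 2.31 to 3.07, with the KO higher each time. The labelled KO embryo at 115 CPM also had the lowest summed level of 14 trophectoderm markers of all 19 embryos, 370 CPM, and the part of cell type in its Cd81 level was not tested. Both folds use non-KO morulae and are descriptions. The choice of Cd81 favours low values in Alyref cross non-KO morulae and high ones in the Gabpb1 cross. Neither direction is therefore read as a KO effect, nor is its stability when 1 embryo is left out.

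Blastocysts were intermediate and scattered, except in the WT group. Alyref cross blastocysts were at 34.6, 3.97 and 20.3 CPM, and Gabpb1 cross blastocysts were at 8.65, 27.5 and 17.0 CPM. WT blastocysts were at 10.4, 11.8 and 10.6 CPM, the tightest group of 3 for this gene. In the order of group means, Gabpb1 cross non-KO morulae (105 CPM) came first, then labelled Gabpb1 KO morulae (49.7), Alyref KO morulae (23.6), Alyref cross blastocysts (19.6), Gabpb1 cross blastocysts (17.7), WT blastocysts (10.9) and Alyref cross non-KO morulae (3.97). Of the neighbours in that order, the last pair was the only one whose ranges did not overlap.

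Where a test was possible, Cd81 did not pass it. Labelled Gabpb1 KO against Alyref KO morulae gave a log2 fold change of 1.07 (SE 0.926, 95% interval -0.90 to 3.04, adjusted p = 0.551, edgeR quasi-likelihood test with Benjamini-Hochberg adjustment). Without the second labelled Gabpb1 KO embryo the value was -0.48. In that comparison 4.57% of all genes were called, meaning an adjusted p below 0.05, and none of the 6 tetraspanins. Alyref cross blastocysts against Alyref KO morulae gave -0.26 (SE 0.893, interval -2.16 to 1.64, adjusted p = 0.875), and 0.22 without the second blastocyst. Gabpb1 cross blastocysts against labelled Gabpb1 KO morulae gave -1.49 (SE 0.819, interval -3.23 to 0.25, adjusted p = 0.256), and 0.07 without the second KO embryo. These intervals include changes of more than 2-fold in either direction or in 1 direction, so equal levels are not shown.

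**Figure D2:**
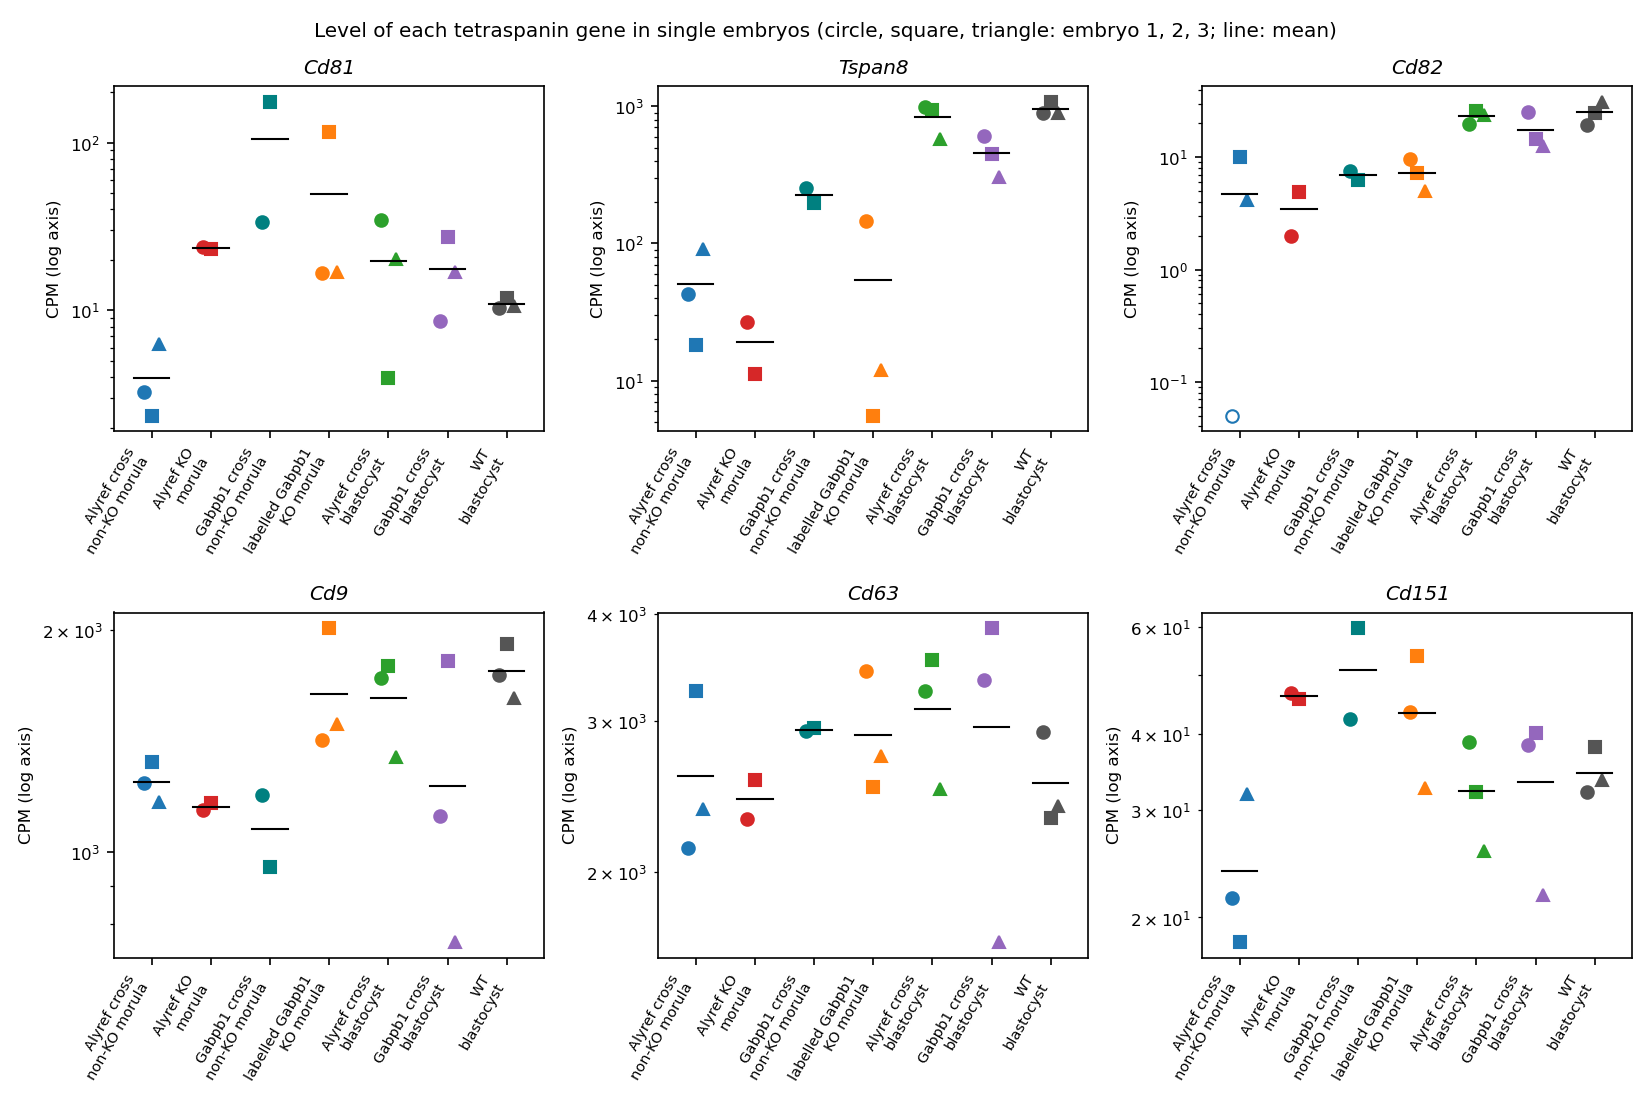
CPM of each of the 6 genes (log axis) in every embryo, by group, with the group mean as a line and an open symbol at the foot of the axis for a count of 0. Cd81 spreads from 2.36 to 175 CPM, Tspan8 and Cd82 are high in all 9 blastocysts, and Cd9 and Cd63 stay within narrow bands.

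Among blastocysts, no difference in Cd81 between groups passed the test. The fitted log2 fold change was -0.16 (SE 0.805, adjusted p = 1) for the Gabpb1 cross against the Alyref cross, 0.85 (SE 0.811, adjusted p = 1) for the Alyref cross against WT, and 0.69 (SE 0.813, adjusted p = 0.948) for the Gabpb1 cross against WT. No gene at all was called in these 3 comparisons (0% of 18410 in each) by edgeR. An unadjusted p under 0.05 was reached by 646, 541 and 1123 genes in the same order, DESeq2 called 16, 15 and 42, and limma 1, 5 and 4. None of the 6 tetraspanins was among the genes called by edgeR there.

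Across the 19 embryos, the genes whose level was most like that of Cd81 were Gm9817, Hsp25-ps1, Hspb1, Nme3 and Rit1, by the correlation of log2(CPM + 1) among 11424 genes. Pearson's r was 0.877 for Gm9817, 0.869 for Hsp25-ps1, 0.867 for Hspb1, 0.860 for Nme3 and 0.852 for Rit1. Hspb1 encodes the small heat shock protein HSP27, and Hsp25-ps1 is annotated as a processed pseudogene. Reads of an expressed gene and a processed copy of it may not be told apart, so these rows may not be separate. Nme3 encodes a nucleoside diphosphate kinase and Rit1 a Ras-like GTPase. Over the 14 embryos that are not non-KO morulae, r was 0.722 for Nme3 and 0.800 to 0.849 for the 4 others. The genes were picked by r over all 19 embryos, these 14 included, so a high r here follows in part from that choice. The points share embryos, crosses and library depth, and no test was made.

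Among the 5 other tetraspanins, Cd151 had the highest r with Cd81 over the 19 embryos, 0.769 (Spearman's rho 0.754), and 0.649 without the 2 embryos farthest from the median of Cd81. These values draw on the 5 non-KO morulae whose Cd81 levels chose the gene. Over the 14 others, a choice made after seeing the data, r was 0.490 for Cd151. For Cd9, Cd63, Cd82 and Tspan8, r with Cd81 lay between -0.126 and 0.015 over all 19. Over the 14 it was -0.602 for Tspan8, -0.483 for Cd82, -0.164 for Cd63 and 0.131 for Cd9, so these correlations depend on which embryos enter. Cd151 also lies on chromosome 7 (chr7:141467392-141471473, plus strand, ENSMUSG00000025510.14).

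**Figure D3:**
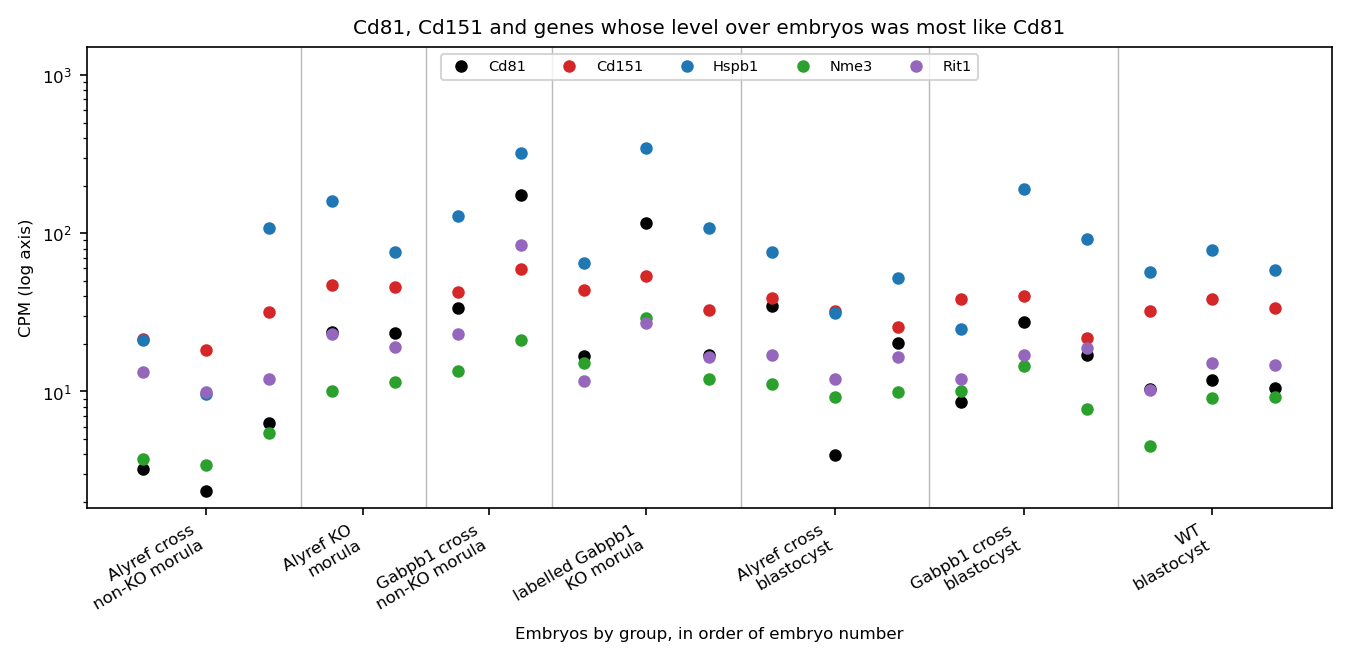
CPM (log axis) of Cd81, Cd151 and 3 of the genes most like Cd81 in each of the 19 embryos, by group. The points of the 3 Alyref cross non-KO morulae are low for Cd81 and Nme3, and the second Gabpb1 cross non-KO morula and the second labelled Gabpb1 KO morula are high for Cd81 and Hspb1.

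Cd151 had a much narrower range than Cd81, from 18.2 to 59.8 CPM. Alyref cross non-KO morulae were lowest, at 21.5, 18.2 and 31.9 CPM. The 2 Alyref KO morulae were at 46.9 and 45.7 CPM, above all 3, as were 12.5% of all genes. The log2 fold change of Alyref KO against non-KO morulae was 0.95 (SE 0.309, unadjusted p = 0.00729) and was not called (adjusted p = 0.205). In that comparison 0.228% of genes were called and none of the 5 tetraspanins tested. Gabpb1 cross non-KO morulae were at 42.4 and 59.8 CPM and labelled Gabpb1 KO morulae at 43.5, 53.8 and 32.7 CPM, which overlapped. The difference between the 2 KO effects was -1.19 (SE 0.437, adjusted p = 0.192), in a comparison that called 0.907% of genes. The difference between the stage effects of the 2 crosses was -1.05 (SE 0.417, adjusted p = 0.306), with 0.00543% of genes called.

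In the comparison of non-KO morulae between the crosses, from which Cd81 was taken, 1.86% of genes were called and 17.9% had every Gabpb1 cross embryo above every Alyref cross embryo. Cd81, Cd151 and Tspan8 were of that second kind. Cd151 had group means of 51.1 and 23.9 CPM and Tspan8 of 224 and 50.7 CPM. Cd9, Cd63 and Cd82 overlapped between the crosses. As this contrast chose Cd81, nothing is read from these counts. Of 5 marker sums, 2 split the same embryos without overlap. The summed CPM of 14 trophectoderm markers other than Tspan8 was 5393 and 3376 in the Gabpb1 cross non-KO morulae against 708, 659 and 2513 in the Alyref cross, and that of 11 epiblast and pluripotency markers was 889 and 612 against 1347, 1136 and 1431. The 3 others overlapped, with 737 to 810 against 560 to 825 CPM for primitive endoderm markers, 38.9 to 63.3 against 47.6 to 65.9 CPM for oocyte mRNAs, and 2.05 to 5.76 against 0.543 to 3.46 CPM for cumulus and granulosa cell markers. No trophectoderm or epiblast marker was at 0 counts in all embryos of a group, and their part in the Cd81 values was not tested.

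Tspan8 was the tetraspanin with the clearest difference between morulae and blastocysts, which were of the same age (ENSMUSG00000034127.15, chr10:115816832-115849893, plus strand). The 9 blastocysts were at 306 to 1079 CPM (median 886) and the 10 morulae at 5.55 to 252 CPM, with no overlap. Alyref cross non-KO morulae were at 43.0, 18.1 and 91.0 CPM and blastocysts of the cross at 990, 937 and 577 CPM. The blastocysts were 16.4-fold higher (log2 fold change 4.04, SE 0.928, adjusted p = 0.0153). The call was lost with spike-in scaling (adjusted p = 0.13), in a fit of those 2 groups alone (0.0517) and without any 1 of 4 embryos (0.0514 to 0.0722), while every value stayed positive, at 3.42 to 4.77. In a bulk library, fewer cells of a type and less RNA per cell cannot be told apart.

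In the Alyref cross comparison of blastocysts with non-KO morulae, 13.0% of genes were called and Tspan8 was the only called gene of the 5 tetraspanins tested. All blastocysts lay above all morulae for 3 of the 6, Tspan8, Cd82 and Cd9, where 19.6% of all genes did. Against Alyref KO morulae, which were at 26.9 and 11.1 CPM, the same blastocysts were 44.3-fold higher in Tspan8 (log2 fold change 5.47, SE 1.20, adjusted p = 0.0118). That call was lost with spike-in scaling (log2 fold change 5.13, adjusted p = 0.0615) and without either KO embryo (6.26 and 5.00, adjusted p = 0.0576 and 0.115). Tspan8 was again the 1 gene of the 6 called, against 13.0% of all genes. Tspan8, Cd82 and Cd9 again lay above in all blastocysts, as did 28.8% of all genes. These comparisons share the 3 blastocysts. In every comparison of blastocysts with KO morulae, of either cross, stage and genotype change together and cannot be told apart.

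In the Gabpb1 cross, blastocysts were at 605, 452 and 306 CPM of Tspan8, non-KO morulae at 252 and 196 CPM, and labelled Gabpb1 KO morulae at 145, 5.55 and 12.0 CPM. The 3 groups did not overlap, but the first labelled KO embryo stood well above the other 2. Blastocysts were 8.40-fold higher than labelled KO morulae (log2 fold change 3.07, SE 0.889, adjusted p = 0.0439). This call was lost with spike-in scaling (log2 fold change 2.04, adjusted p = 0.407), in a fit of those groups alone (3.09, adjusted p = 0.184), and without any 1 of 5 of the 6 embryos (2.56 to 3.29, adjusted p = 0.0561 to 0.114). It was kept without the first labelled KO embryo, where the log2 fold change was 5.69. In this comparison 8.92% of genes were called and Tspan8 was the 1 gene of the 6, and Tspan8 and Cd82 were higher in all blastocysts, as were 13.4% of genes.

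Against the non-KO morulae of the same cross, Gabpb1 cross blastocysts did not pass the test for Tspan8 (log2 fold change 1.02, SE 0.947, interval -0.99 to 3.03, adjusted p = 0.887). No gene was called there (0% of 18410, with 1237 genes at an unadjusted p under 0.05, and 57 called by DESeq2 and 10 by limma). Tspan8 and Cd82 were higher in all 3 blastocysts than in both morulae, which 11.4% of genes were. The stage effect in the Gabpb1 cross minus that in the Alyref cross was -3.02 (SE 1.23, unadjusted p = 0.0268, adjusted p = 0.317), so a difference between the crosses was not established.

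Among morulae, Tspan8 was lower in every labelled Gabpb1 KO embryo than in both non-KO embryos, as were 16.4% of all genes. The test was not passed (log2 fold change -2.05, SE 0.914, unadjusted p = 0.0399, adjusted p = 0.243). Of all genes, 1.65% were called in that comparison, and none of the 5 tetraspanins tested. Without the first labelled KO embryo the value was -4.66 and was called (adjusted p = 0.00403). That embryo also had the highest trophectoderm marker sum of its group, 3261 CPM against 370 and 1210 CPM. Alyref KO against non-KO morulae gave -1.43 (SE 0.982, adjusted p = 0.617), and labelled Gabpb1 KO against Alyref KO morulae gave 1.52 (SE 0.986, adjusted p = 0.407), or -1.09 without the first labelled Gabpb1 KO embryo.

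Gabpb1 cross blastocysts, at 306 to 605 CPM, were all below the WT blastocysts, at 895, 1079 and 886 CPM, as were 6.33% of all genes. The log2 fold change of -1.07 (SE 0.829, adjusted p = 0.914) did not pass the test. Across the 19 embryos Tspan8 went with Cd82 (r = 0.711, rho 0.818). The genes most like Tspan8 were Lcp1, an actin-bundling protein (r = 0.968), Gm10231 (0.964), Agtrap, which binds an angiotensin receptor (0.964), Hddc2 (0.963) and Txndc16 (0.963). These r values pool morulae and blastocysts, between which neither Tspan8 nor Cd82 overlapped. The part of stage in them was not tested.

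**Figure D4:**
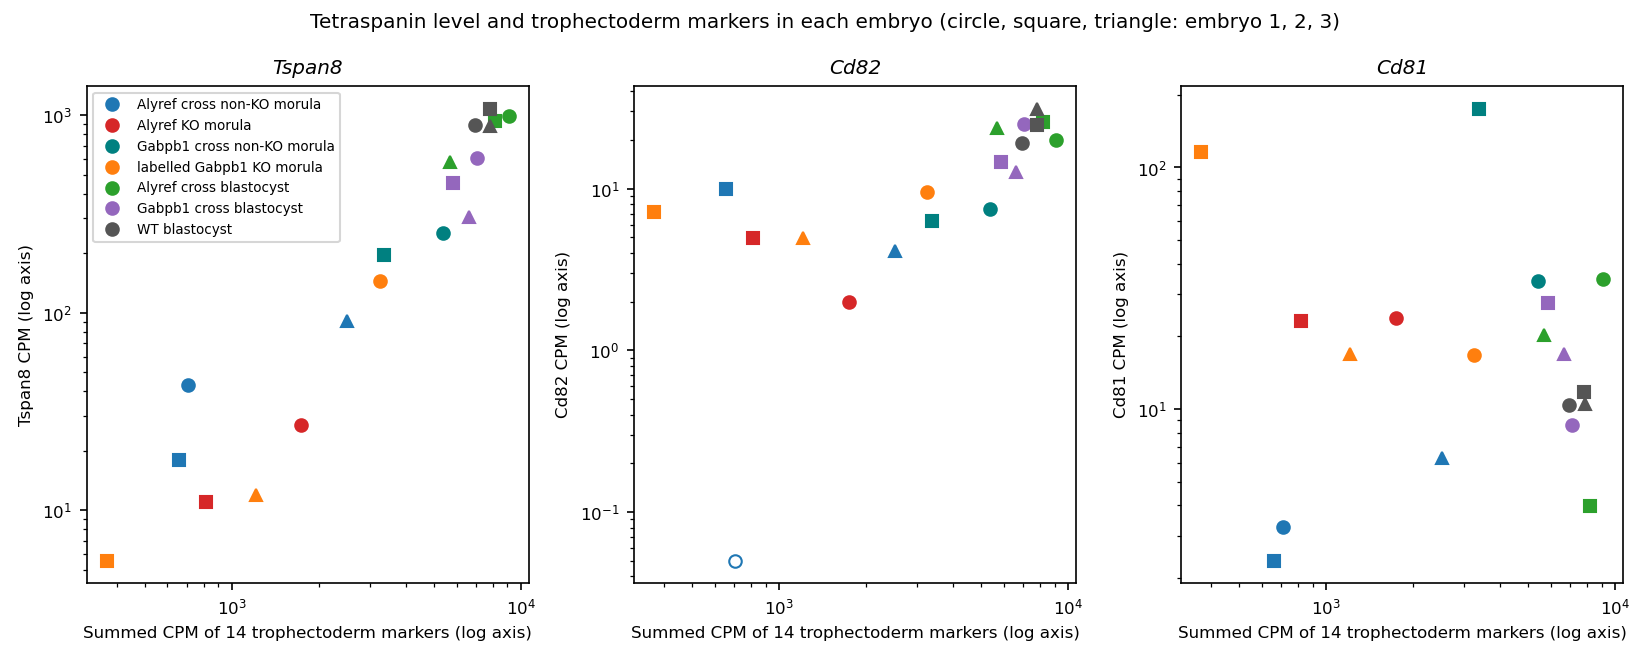
CPM of Tspan8, Cd82 and Cd81 (log axis) against the summed CPM of 14 trophectoderm markers (log axis, Tspan8 left out of the sum), 1 point per embryo, with an open symbol at the foot of the axis for a count of 0. For Tspan8 the points of the 9 blastocysts lie at the upper right, with marker sums of 5674 to 9092 CPM, and the embryos with the lowest sums are among the lowest in Tspan8.

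The trophectoderm marker sum was 5674 to 9092 CPM in the 9 blastocysts and 370 to 5393 CPM in the 10 morulae, so the 2 stages did not overlap in it. With Tspan8 counted, 5 of 15 markers were called higher and 1 lower in Alyref cross blastocysts against non-KO morulae, where 13.0% of all genes were called in either direction, and the median log2 fold change of the 15 was 2.58 against -0.04 over all genes. In the Gabpb1 cross 0 were called, as were 0% of all genes, and the median was 0.66. How far the share of trophectoderm in an embryo set the level of Tspan8 was not tested.

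Cd82 was low in morulae and higher in blastocysts without passing the test (ENSMUSG00000027215.13, chr2:93419111-93463140, minus strand). Every morula was at 0 to 9.95 CPM, with 0 counts in 1 Alyref cross non-KO morula, and every blastocyst was at 12.7 to 31.3 CPM. Alyref cross non-KO morulae were at 0, 9.95 and 4.14 CPM and the blastocysts of that cross at 20.0, 25.7 and 23.6 CPM. The log2 fold change was 2.31 (SE 0.874, interval 0.46 to 4.17, adjusted p = 0.0867). It was 1.74 without the first morula, the embryo at 0 counts, and 3.52 without the second, and leaving out 1 embryo never gave a call. DESeq2 (2.29, adjusted p = 0.0272) and limma on log2(FPKM + 1) (1.99, adjusted p = 0.00677) called it. Against Alyref KO morulae, at 1.98 and 4.94 CPM, it was 2.71 (SE 1.05, adjusted p = 0.096), again called by both other tools (adjusted p = 0.0196 and 0.00768) and in a fit of those 2 groups alone (0.00477).

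In the Gabpb1 cross, Cd82 was at 25.2, 14.6 and 12.7 CPM in blastocysts, 7.47 and 6.31 CPM in non-KO morulae, and 9.56, 7.22 and 4.97 CPM in labelled KO morulae. The groups of morulae overlapped and the blastocysts lay above both. The log2 fold change was 1.34 against non-KO morulae (SE 0.973, adjusted p = 0.836) and 1.27 against labelled KO morulae (SE 0.847, adjusted p = 0.35).

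Cd9 (ENSMUSG00000030342.8, chr6:125460266-125494791, minus strand) stayed between 756 and 2012 CPM, a span of 2.66-fold. Labelled Gabpb1 KO morulae were at 1418, 2012 and 1491 CPM, all above the non-KO morulae at 1195 and 956 CPM, as were 15.8% of all genes. The log2 fold change was 0.61 (SE 0.278, interval 0.02 to 1.20, unadjusted p = 0.044, adjusted p = 0.253), so the test was not passed. Gabpb1 cross blastocysts were at 1120, 1815 and 756 CPM, a wider spread than in the labelled KO morulae, and the log2 fold change between those groups was -0.42 (SE 0.245, adjusted p = 0.289). It was called without the second blastocyst (-0.80, adjusted p = 0.0338). Against WT blastocysts, at 1740, 1918 and 1617 CPM, Gabpb1 cross blastocysts gave -0.52 (SE 0.245, unadjusted p = 0.0522, adjusted p = 0.814).

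Cd63 was the steadiest of the 6 (ENSMUSG00000025351.14, chr10:128900989-128912822, plus strand), at 1655 to 3850 CPM. Its fitted log2 fold changes over the 12 comparisons tested ran from -0.25 to 0.35, with SE of 0.256 to 0.405, and none was called. The lowest value, 1655 CPM, was in the third Gabpb1 cross blastocyst, which was also the lowest embryo for Cd9.

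**Figure D5:**
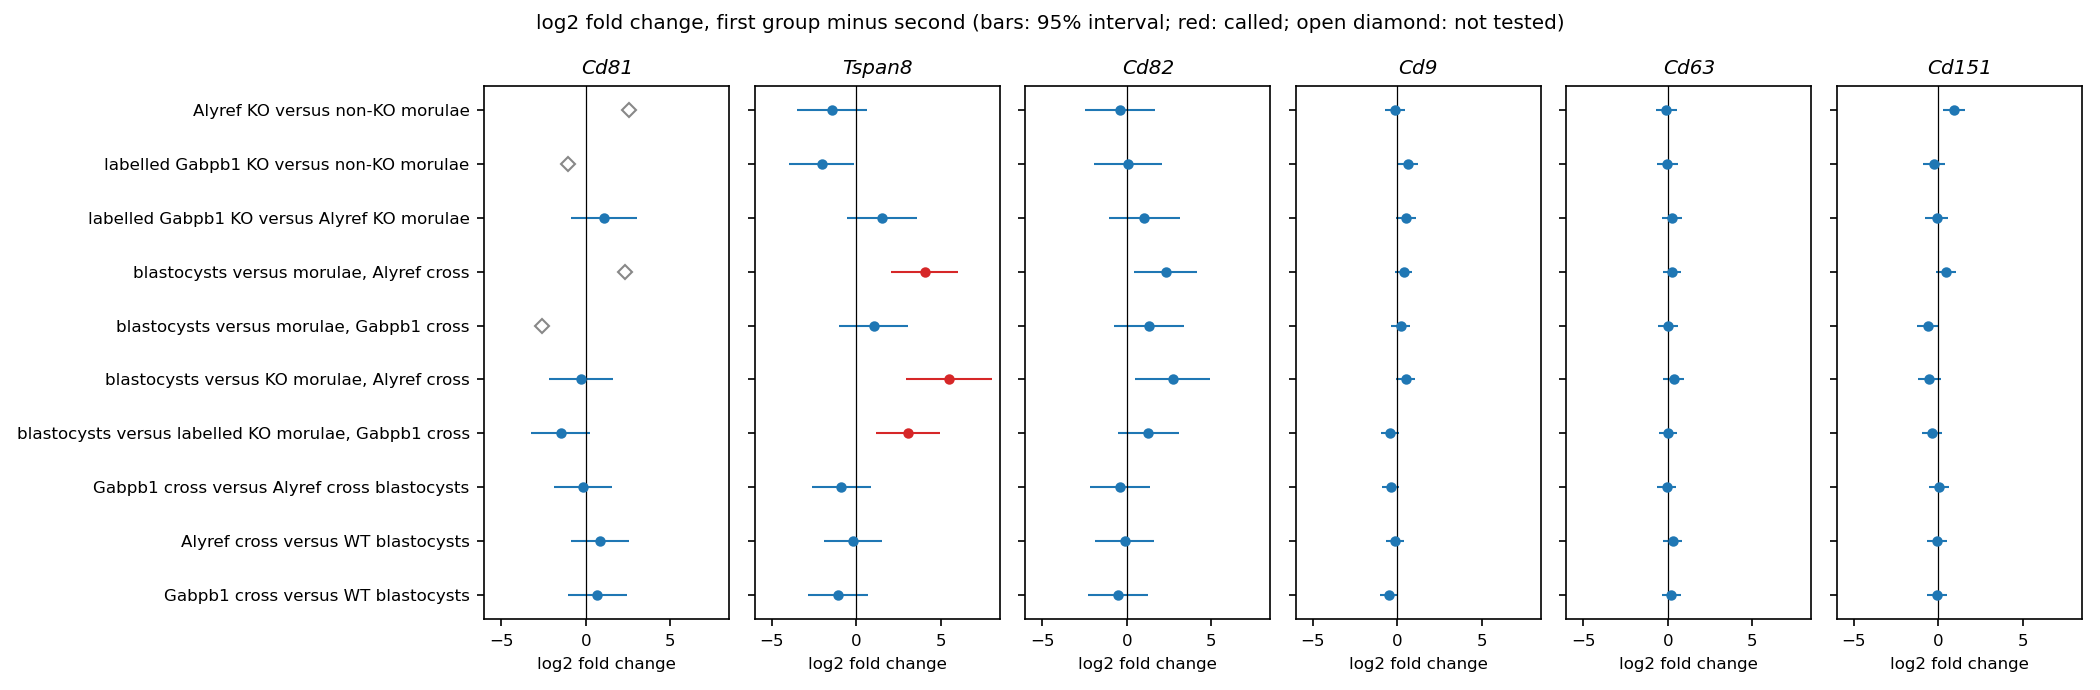
Fitted log2 fold change (first group minus second) of the 6 genes in 10 comparisons, with 95% intervals for those tested, red where called, and an open diamond for Cd81 where the value is a description. The 3 red points are Tspan8 in blastocysts against morulae. They are at 4.04 for non-KO morulae of the Alyref cross, 5.47 for Alyref KO morulae and 3.07 for labelled Gabpb1 KO morulae.

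Genes on the opposite strand overlap exons of some of the 6, and the strand setting of the counts is not given in the sources used here, so such reads may not be separable. R74862 shares 104 exonic bases with Cd81 and held 0 to 45 counts per embryo. Gm26728 shares 218 bases with Cd9 and held 901 to 5038 counts, and Gm10575 shares 193 bases with Cd151 and held 10 to 70 counts.

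Of 25 other tetraspanin genes, 15 were tested. The most abundant per length were Tspan31, Tspan1, Tspan3 and Tspan14, at mean FPKM of 46.5, 16.3, 15.5 and 9.65. In comparisons that use no non-KO morula, Tspan1 and Tspan15 were called. Each call below was the 1 of the 15 in its comparison, where 13.0%, 4.57% and 8.92% of all genes were called, in the order given. Tspan1 was lower in Alyref cross blastocysts than in Alyref KO morulae (28.6 against 88.9 CPM, log2 fold change -1.63, SE 0.422, adjusted p = 0.0224). It was also lower in labelled Gabpb1 KO than in Alyref KO morulae (28.0 against 88.9 CPM, -1.67, SE 0.423, adjusted p = 0.0364). A fit of those KO groups alone called 0 genes. Tspan15, which directs the protease ADAM10, rose in Gabpb1 cross blastocysts against labelled Gabpb1 KO morulae (25.2 against 3.80 CPM, 2.73, SE 0.772, adjusted p = 0.0405). In both KO against non-KO comparisons none of the 15 was called, where 0.228% of all genes were called for Alyref and 1.65% for labelled Gabpb1, with median log2 fold changes of 0.46 for Alyref and -0.87 for labelled Gabpb1, against -0.04 and 0.06 over all genes.

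Of 20 partners of tetraspanins, 15 were tested. The most abundant per length were Epcam, the epithelial adhesion molecule, Cldn7, a tight junction claudin that binds it, and Ifitm2, an interferon-induced membrane protein. Cldn7 was called higher in Alyref cross blastocysts than in non-KO morulae (589 against 233 CPM, log2 fold change 1.34, SE 0.225, adjusted p = 0.0076), as was Igsf3 (8.40 against 3.08 CPM, adjusted p = 0.0397, named after its value was seen). These were the 2 of 15 partners called in that comparison, where 13.0% of all genes were called, a similar share. Epcam was at 2003 against 587 CPM there (1.77, SE 0.636, adjusted p = 0.0736). Ifitm2 was the 1 partner of 15 called in labelled Gabpb1 KO against non-KO morulae, lower at 0.871 against 22.9 CPM (-4.72, SE 0.621, adjusted p = 0.00185), where 1.65% of all genes were called. It was also lower than in Alyref KO morulae, at 7.98 CPM (-3.19, SE 0.617, adjusted p = 0.0105). In that comparison it was again the 1 partner called, where 4.57% of all genes were called.

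Endosome and exosome genes numbered 14, of which 13 were tested, led per length by Lamp1, Rab7 and Tsg101. Tsg101, a component of the ESCRT machinery that sorts cargo into vesicles, was higher in blastocysts than in KO morulae in the Alyref cross (191 against 95.6 CPM, log2 fold change 1.00, SE 0.228, adjusted p = 0.0138) and in the Gabpb1 cross (206 against 111 CPM, 0.89, SE 0.199, adjusted p = 0.0159). Of the 13, that Alyref cross comparison called 3 higher and 3 lower, where 13.0% of all genes were called. The Gabpb1 cross comparison called 4 higher and 1 lower, where 8.92% of all genes were called. Lamp1 and Rab7 were not called in any comparison. In Alyref cross blastocysts against non-KO morulae 3 of the 13 were called higher (Sdcbp, Flot1 and Flot2) and 2 lower (Lamp2 and Rab27a), named after their values were seen, where 13.0% of all genes were called. Flot2, a raft protein, was the 1 gene of the 13 called in labelled Gabpb1 KO against non-KO morulae (11.1 against 87.0 CPM, -2.97, SE 0.476, adjusted p = 0.0074), where 1.65% of all genes were called.

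The neighbours of Cd81 on chromosome 7 belong to a cluster known for imprinting, and 9 of the 14 listed were tested. Tssc4, whose gene begins 1.32 kb beyond the end of Cd81, was at 5.65 to 33.8 CPM. In the non-KO morulae where Cd81 differed between the crosses, 6 of the 9 were higher in both Gabpb1 cross embryos than in all 3 Alyref cross embryos, against the 17.9% of all genes given above, and 3 overlapped (Tssc4, Phlda2 and Tnfrsf22). Those 6, named after their values were seen, were Nap1l4 at a mean of 113 against 83.6 CPM, Osbpl5 at 4.74 against 0, Slc22a18 at 4.53 against 0.734, Cdkn1c at 4.04 against 1.49, Ascl2 at 2.74 against 0.101 and Tnfrsf23 at 2.08 against 0.635 CPM. Tssc4 was at 17.5 against 18.4 CPM. This contrast chose Cd81 and the neighbours lie near it, so nothing is read from the count. The values are descriptions with no test, and 5 of the 6 genes were at low levels. Nap1l4, a nucleosome assembly factor, was at 74.3 to 142 CPM and was called in no comparison, as was Tssc4. Phlda2, a growth-restraining gene of the placenta, was lower in Alyref cross blastocysts than in non-KO morulae (0.385 against 4.21 CPM, -3.25, SE 0.989, adjusted p = 0.042), and Osbpl5 was higher there (11.9 CPM against 0 counts in all 3 morulae, adjusted p = 0.0076). That comparison thus called 1 of the 9 higher and 1 lower, where 13.0% of all genes were called. In the Gabpb1 cross Phlda2 was at 2.78 CPM in blastocysts and 2.71 CPM in non-KO morulae, and the difference between the stage effects was 3.29 (SE 1.42, adjusted p = 0.333). Osbpl5, named after its values were seen, was the 1 gene of the 9 called in labelled Gabpb1 KO against non-KO morulae (0.144 against 4.74 CPM, adjusted p = 0.047, with too few counts in the labelled KO embryos for a fold), where 1.65% of all genes were called.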

How the data were processed

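PolyA RNA of 19 single embryos was sequenced after cDNA amplification over 16 PCR cycles, per the labels' protocols. Trimmomatic, Trim Galore, cutadapt, STAR, featureCounts and the mm10 build are named in the submitters' processing notes, with no versions, and the strand setting is not given in the sources used here. The deposited table is named for FPKM, but its values are raw counts: whole numbers with totals that differ between embryos. Of its gene identifiers, 50604 of 53379 are in GENCODE M21 with the same start and end.

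CPM used TMM-scaled totals of gene counts without spike-ins, and FPKM the deposited gene lengths. Genes at an FPKM of 1 or more in at least 2 embryos were tested (18410 of 39262 with any count) with edgeR 4.0.16 (R 4.3.3), quasi-likelihood test, 1 mean for each of 7 groups. P-values were adjusted over all 18410 genes by Benjamini-Hochberg, with a threshold of 0.05, and SE is the log2 fold change over the square root of F. The method was tested on simulated data. No contrast that uses non-KO morulae was tested for Cd81.

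The 6 genes, the gene lists and the markers were chosen with earlier results of these data known. All 6 genes are named. Of the other tetraspanins, those named are the 4 with the highest mean FPKM and those called without use of non-KO morulae, and of each other list the 3 with the highest mean FPKM. The genes most like Cd81 are the 5 with the highest r at a mean CPM of 5 or more. Alternatives were other scalings, filters, DESeq2 1.42.0, limma 3.58.1 on log2(FPKM + 1), the replicate block, the groups compared alone, and leaving out each embryo. PCR copies were not marked by molecular identifiers, so counts are not counts of molecules.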

Additional observations from a re-analysis of the deposited data

How the results depend on the processing

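Of 66 tested results of the 6 genes, 3 were called, all for Tspan8. Of their 942 alternative values, 858 kept direction and side of the threshold, 16 lost a call, 7 gained one and 61 changed sign, all 61 among results not called. The causes were not tested. The number of the genes called in Alyref cross blastocysts against non-KO morulae (main 1) was 0 with spike-in scaling and with only the groups compared, 2 with DESeq2 and 2 with limma, and 0 to 1 leaving out 1 embryo. Over all genes the calls there moved too, from 2402 to 352 with spike-in scaling, 24 with only the groups compared, 3762 with DESeq2, 2624 with limma and 346 to 4560 leaving out 1 embryo. Against Alyref KO morulae it was 0 with spike-in scaling, 2 with DESeq2, limma or only the groups compared, and 0 to 1 leaving out 1 embryo (all genes 2389, then 527, 3576, 2825, 5212 and 299 to 1203). In the Gabpb1 cross against labelled KO morulae it was 0 with spike-in scaling and with only the groups compared. Leaving out 1 embryo there gave 0 to 1 (all genes 1643, then 87, 13 and 364 to 2712). In labelled Gabpb1 KO against non-KO morulae it was 0 with both settings and 0 to 1 leaving out 1 labelled KO embryo. All genes called there were 303, then 26, 0 and 118 to 966. For labelled Gabpb1 KO against Alyref KO morulae they were 841, then 9, 0 and 579 to 927 leaving out 1 labelled Gabpb1 KO embryo. In these KO comparisons the ranges omit the fits that leave 1 embryo in a group, and with them the ranges reach lower. With only the groups compared, the calls of Ifitm2, Flot2, Osbpl5 and Tspan1 in these KO comparisons were thus lost. Spike-in scaling shifted the median of all genes by -0.30 in Alyref cross blastocysts against non-KO morulae, -0.27 against Alyref KO morulae, -0.41 in Gabpb1 cross blastocysts against labelled KO morulae, -0.89 against non-KO morulae and -0.47 in labelled Gabpb1 KO against non-KO morulae (log2).

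Leaving out 1 embryo, the log2 ratio of Cd81 between non-KO morulae of the crosses ranged from 3.09 to 5.47. Cd81 changed sign in labelled Gabpb1 KO against Alyref KO morulae (-0.48 to 1.49), in blastocysts against KO morulae of the Alyref cross (-0.97 to 0.22) and Gabpb1 cross (-1.95 to 0.07), and between blastocysts of the crosses (-0.65 to 0.55, and 0.075 with limma). Tspan8 changed sign in labelled Gabpb1 KO against Alyref KO morulae (-1.09 to 2.27). With the replicate number as a block, the counts were 1 in each of the 3 comparisons where Tspan8 was called and 0 elsewhere, so the block changed none. The numbers do not pair the embryos: 52 same-numbered pairs had a median correlation of deviations of 0.001 (-0.202 to 0.263), and 7 of 19 embryos correlated best with their own number. With 2 or 3 embryos a group, small changes are out of reach.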
